A study of Mus musculus with 39 samples.

Results

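The genes described here are 10 factors through which astrocytes form, mature or remove synapses. They are hevin (Sparcl1) and its relative SPARC (Sparc), the glypicans Gpc4, Gpc5 and Gpc6, the thrombospondins Thbs1, Thbs2 and Thbs4, and the engulfment receptors Megf10 and Mertk. They were taken by name, as the rows whose Ensembl identifier, with its version removed, carries one of these symbols in GENCODE release M21, and make up 10 of the 55401 genes in the tables. All 10 were found, had at least 1 count in each of the 39 libraries, and passed the filter on low counts in every fit, so none is left out below.

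The libraries were made by RNA-seq of astrocytes from male mice after chronic social defeat stress (CSDS), in which a mouse is repeatedly exposed to a larger aggressor and is then called susceptible if it avoids others and resilient if it does not. Cells were collected with magnetic beads against ACSA-2, a surface antigen of astrocytes, and total RNA was amplified at very low input with a stranded kit. The groups were NAc susceptible (n = 8), NAc resilient (n = 7), NAc control (n = 7), PFC susceptible (n = 6), PFC resilient (n = 5) and PFC control (n = 6), where NAc is the nucleus accumbens and PFC the prefrontal cortex. Each library carries its own mouse number. The sources used here do not state strain, age, the length of the stress or any pooling, and the protocol printed for the PFC libraries names NAc tissue. In such bulk samples, fewer cells of a type and less RNA per cell cannot be told apart.

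Hevin bridges neurexins and neuroligins across the synaptic cleft and promotes excitatory synapses, while SPARC opposes it. Thrombospondins act on neurons through the calcium channel subunit encoded by Cacna2d1, and secreted glypicans draw AMPA receptors to young synapses, in part through neuronal pentraxins. Megf10 and Mertk sit on the astrocyte surface and take up synaptic debris; Mertk is a receptor tyrosine kinase that binds the bridging proteins encoded by Gas6 and Pros1.

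Library totals ran from 941450 to 37339379 counts, with a median of 11264270. The deposited counts cover whole gene spans, introns included: the length implied by counts and FPKM (fragments per kilobase of span, scaled to the library total) equalled the annotated span for 54229 of 54229 genes compared, to a relative tolerance of 1e-06. A background of reads spread over the genome was gauged from 1479 olfactory, vomeronasal and trace-amine receptor genes, whose summed FPKM is given as a percentage of the FPKM that counts laid evenly over all gene spans would give. This background percentage had a median of 58.8 in NAc libraries (35.7 to 81.1) and 55.8 in PFC libraries (13.4 to 71.5). It was under 40 in 6 libraries, 1 from NAc and 5 from PFC. The 10 astrocyte markers were detected in every library, their summed level running from 1490 to 8424 CPM (counts scaled to a common library total) in NAc and from 1422 to 14885 CPM in PFC. The oligodendrocyte markers summed to a median of 1529 CPM in NAc and 1095 CPM in PFC, and the neuron markers to 840 CPM in NAc and 1146 CPM in PFC, so other cells' RNA was present in the sort.

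The promoter table from RefSeq (build GRCm38.p6), holding 250 bases before and 50 after each gene's start, had entries for 6 of the 10 genes, namely Mertk, Sparc, Thbs4, Gpc5, Thbs2 and Gpc4. Because the study concerns CREB, a transcription factor that binds the cAMP response element, the element TGACGTCA and its core TGACG were searched on both strands. The core is contained in the full element. Neither was found in any of the 6 windows, against 1.79% and 20.8% of the 32851 promoters in the table. The GC box GGGCGG, found in 35.7% of promoters, occurred 4 times in Mertk, 3 times in Thbs4 and once each in Gpc5 and Gpc4, and CCAAT (37.4% of promoters) occurred 2 times in Thbs2. The letters TATAAA (13.6%) stood once each in Gpc5 and Thbs2. A match is a description of these letters, not a binding site. The windows below are shown because Thbs4 was the gene of the 10 that was higher in NAc, and because Mertk and Gpc5 were the pair whose levels moved most closely together; capitals mark GC boxes and TATAAA on either strand.
Thbs4, chr13:92794769-92795068, minus strand: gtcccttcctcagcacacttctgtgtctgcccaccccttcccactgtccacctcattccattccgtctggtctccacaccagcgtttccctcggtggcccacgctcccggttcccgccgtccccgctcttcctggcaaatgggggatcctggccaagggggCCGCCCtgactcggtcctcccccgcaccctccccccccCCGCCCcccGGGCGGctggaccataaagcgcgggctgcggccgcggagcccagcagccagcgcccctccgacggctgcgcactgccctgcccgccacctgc
Mertk, chr2:128698665-128698964, plus strand: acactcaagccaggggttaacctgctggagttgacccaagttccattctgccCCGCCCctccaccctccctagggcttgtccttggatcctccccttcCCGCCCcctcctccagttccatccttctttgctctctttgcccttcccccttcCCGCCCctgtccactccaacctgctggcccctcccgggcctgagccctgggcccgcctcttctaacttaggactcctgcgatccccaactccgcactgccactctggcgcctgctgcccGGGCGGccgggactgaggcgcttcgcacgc
Gpc5, chr14:115091965-115092264, plus strand: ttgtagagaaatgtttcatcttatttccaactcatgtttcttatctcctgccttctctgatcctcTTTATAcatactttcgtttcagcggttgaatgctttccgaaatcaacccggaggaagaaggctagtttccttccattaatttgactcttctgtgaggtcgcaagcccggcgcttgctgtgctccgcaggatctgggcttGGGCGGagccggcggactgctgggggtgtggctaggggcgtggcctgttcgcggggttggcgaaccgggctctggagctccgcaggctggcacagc
The 3 windows differ in base composition, with a GC content of 72.0% in Thbs4, 66.0% in Mertk and 54.7% in Gpc5.

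The genes differ widely in how much of their span is exon. Exons fill 39.8% of Thbs1, a gene of 15.3 kb (chr2:118111876-118127133), but 0.311% of Gpc5, which spans 1433 kb (chr14:115092215-116525179), and 0.611% of the neighbouring Gpc6 (chr14:116925315-117976544, mm10 coordinates from GENCODE). Thbs4 lies at chr13:92751590-92794818, Mertk at chr2:128698956-128802894, Sparcl1 at chr5:104079111-104113733 and Sparc at chr11:55394500-55423183. Thbs2 lies at chr17:14665500-14694235, Gpc4 at chrX:52053021-52165252 and Megf10 at chr18:57133090-57297467. FPKM divides by this whole span, introns included, so the values below compare genes per length of span. The sources used here do not say whether counting used the strand, so reads from opposite-strand genes inside Gpc5 (4930505G20Rik, Gm18367 and Gm20713), Gpc6 (Mir6239), Thbs1 (Gm29233), Sparcl1 (Gm26703) and Mertk (Gm14011) cannot be told apart from their own, and Gm23172 lies within Mertk on its own strand. No other annotated gene overlaps Sparc, Gpc4, Thbs2, Thbs4 or Megf10.

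Hevin was by far the most abundant of the 10. Over all 39 libraries Sparcl1 had a median of 15.2 FPKM (4.36 to 69.9), followed by Mertk at 2.79 FPKM and Sparc at 1.98 FPKM. Gpc5 (1.16 FPKM) and Megf10 (1.08 FPKM) came next, Gpc6 (0.818), Thbs4 (0.780), Thbs2 (0.757) and Thbs1 (0.699) lay lower still, and Gpc4 was lowest at 0.334 FPKM. Sparcl1 exceeded Mertk in 39 of 39 libraries, Mertk exceeded Sparc in 37, and Sparc exceeded Gpc5 in 35. Megf10 was above Gpc6 in 35 libraries, Thbs2 above Thbs1 in 28 and Thbs1 above Gpc4 in 37. The order was least settled for Gpc5 over Megf10 (23 of 39 libraries), Gpc6 over Thbs4 (22) and Thbs4 over Thbs2 (17), and the ranges of all neighbours overlapped.

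Set against the receptor-gene background of the same library, these levels show how much of the cover each gene had to itself. Sparcl1 lay at a median of 33.7 times background and was at least 7.92 times background everywhere. Mertk lay at 6.64 times, Sparc at 4.63, Gpc5 at 3.00 and Megf10 at 2.64. Gpc6 and the thrombospondins were close to background, with medians of 1.88 times for Gpc6, 1.73 for Thbs4, 1.73 for Thbs2 and 1.62 for Thbs1. Gpc4 lay under background in 34 of 39 libraries (median 0.767 times), so its values cannot be read as astrocyte expression, and Thbs1 lay under it in 4 libraries. At these levels a fold change also carries any difference in background between the libraries compared.

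**Figure D1:**
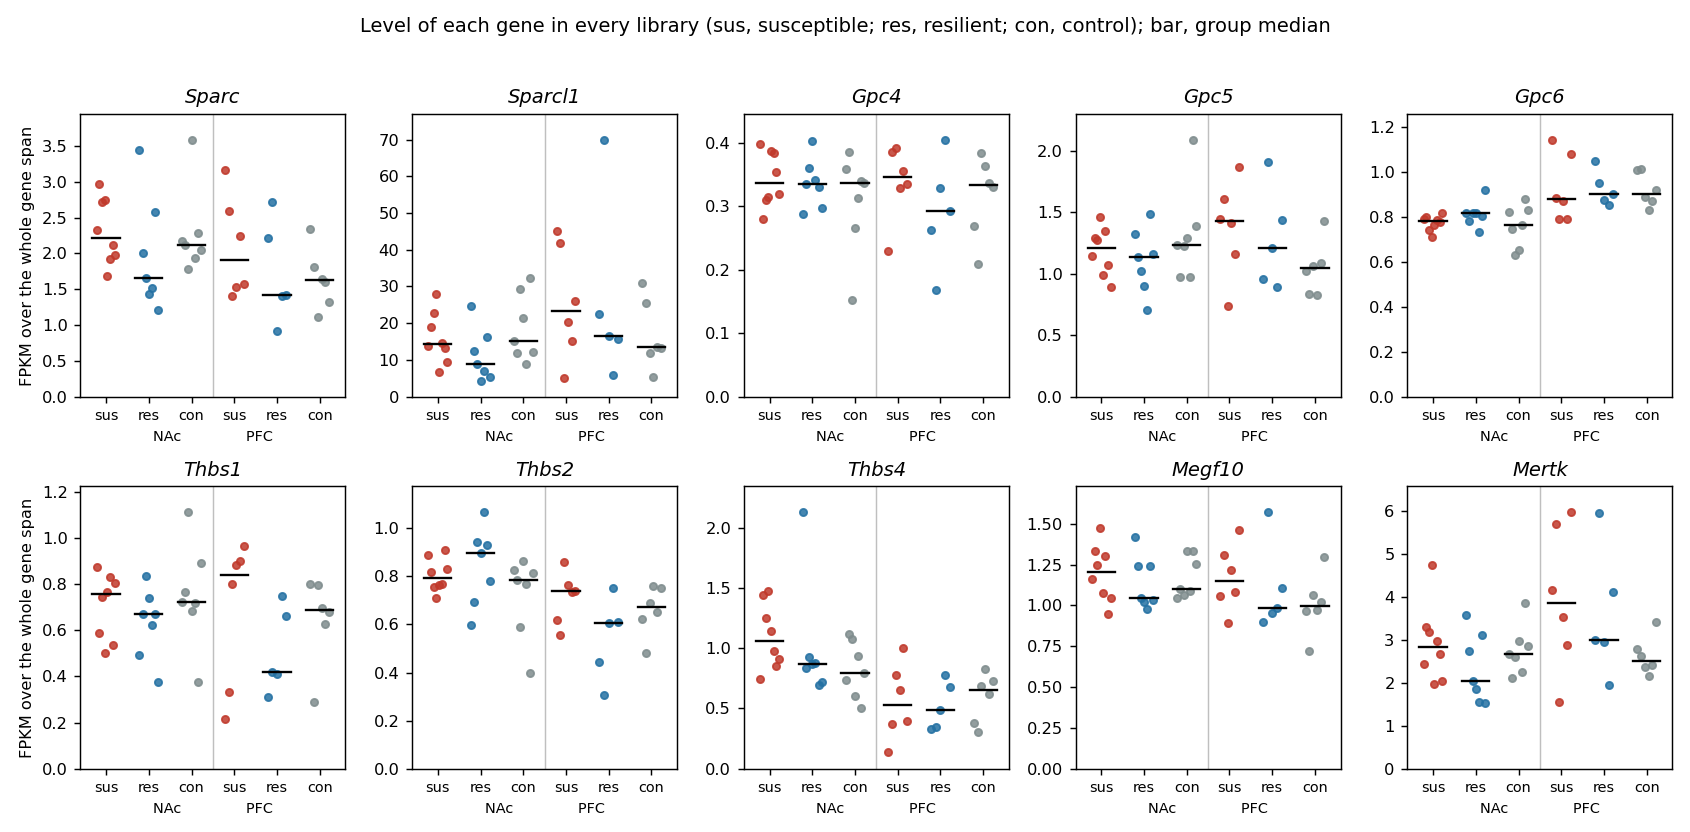
Level of the 10 genes in every library, in FPKM over the whole gene span on linear axes that start at 0; each point is a library, the bar the group median, and NAc groups stand left of PFC groups. Thbs4 points of the NAc lie mostly above those of the PFC (medians 0.896 and 0.619 FPKM), Gpc6 points mostly below (0.789 and 0.889 FPKM), and the stress groups overlap in every panel.

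A thrombospondin and a glypican differed between the NAc and PFC libraries. Thbs4 was higher in NAc than in PFC by 0.71 ± 0.16 on the log2 scale (± SE), and Gpc6 was lower by the value -0.43 ± 0.10. These were the 2 genes of the 10 to pass an adjusted p of 0.05 (edgeR quasi-likelihood test over all 39 libraries, mean of the 3 within-condition differences, Benjamini-Hochberg over 38171 genes). In this comparison 4% of all genes tested passed, 0.27% higher and 3.73% lower in NAc, so the 1 of 10 higher stands against 0.27% and the 1 of 10 lower against 3.73%. Of the 17302 genes of log2 CPM above 3, 73 were higher and 1062 lower, so both shares are low marks for well-covered genes. Over the 10 genes the median log2 fold change was -0.05, against 0.04 over all genes tested. Of the 10 genes, 0 passed with marker components of other cell types as covariates, with consecutive sample numbers as a pair block, or without the 6 libraries of low background.

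Among the thrombospondins, secreted matrix proteins that start synapse formation, Thbs4 was the one that passed. In NAc libraries it had 0.743 FPKM at the lowest, 1.06 at the median and 1.48 at the highest in susceptible mice, 0.698, 0.869 and 2.13 in resilient mice, and 0.50, 0.792 and 1.12 in controls. In PFC libraries it had 0.140, 0.525 and 1.01 FPKM in susceptible mice, 0.328, 0.348, 0.490, 0.780 and 0.676 in the 5 resilient mice, and 0.300, 0.654 and 0.831 in controls. Of the 22 NAc libraries, 20 lay above the PFC median and 7 above the highest PFC library, while 8 of the 17 PFC libraries lay below the lowest NAc library. The adjusted p was 0.00423. Within single conditions the fold change was 0.92 ± 0.26 in susceptible mice (adjusted p 0.718), 0.80 ± 0.28 in resilient mice (0.312) and 0.42 ± 0.26 in controls (1.00), none of which passed; over all 38171 genes 1 did in susceptible mice (0.00262%), 0 in resilient mice (0%, with 5564 at an unadjusted p under 0.05 and 55 called by DESeq2) and 1 in controls (0.00262%). Thbs1 and Thbs2 did not pass over conditions, with 0.08 ± 0.13 (adjusted p 0.759) and 0.18 ± 0.08 (0.190). For Thbs2, 19 of 22 NAc libraries lay above the PFC median of 0.652 FPKM.

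Among the glypicans Gpc6 passed. NAc libraries had 0.710, 0.783 and 0.817 FPKM (lowest, median and highest) in susceptible mice, 0.734, 0.817 and 0.918 in resilient mice and 0.632, 0.765 and 0.878 in controls. PFC libraries had 0.790, 0.879 and 1.14 FPKM in susceptible mice, 1.05, 0.952, 0.877, 0.855 and 0.901 in the 5 resilient mice and 0.830, 0.904 and 1.01 in controls. The ranges overlapped, but 1 of 22 NAc libraries exceeded the PFC median and 17 of 17 PFC libraries exceeded the NAc median, with an adjusted p of 0.00489. The difference was of like size in each condition, at -0.46 ± 0.16 in susceptible mice (adjusted p 0.718), -0.45 ± 0.17 in resilient mice (0.318) and -0.38 ± 0.16 in controls (0.770), and passed in none. Gpc5, with -0.20 ± 0.14 (adjusted p 0.407), and Gpc4, with -0.05 ± 0.08 (0.733), did not differ detectably. Gpc4 had the opposite sign (0.03) with limma-trend on log2(FPKM + 0.5). Gpc5 came to 0.007 with the background percentage as a covariate and to 0.009 without the 6 libraries of low background.

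Hevin, SPARC and the engulfment receptors did not pass. Sparcl1 had the largest fitted difference of the 10, -0.84 ± 0.33 (adjusted p 0.146), and also the widest spread: it ran from 4.36 to 32.4 FPKM in NAc and from 4.98 to 69.9 FPKM in PFC. Mertk came to -0.51 ± 0.18 (adjusted p 0.0952), with 2.67 FPKM at the NAc median and 2.95 at the PFC median. It passed with DESeq2 (adjusted p 0.0494) and in 3 of the 39 fits that each left out 1 library, namely NAc resilient replicate 1, PFC susceptible replicate 3 or PFC resilient replicate 4 (smallest adjusted p 0.0273). Megf10, with -0.06 ± 0.10 (adjusted p 0.781), and Sparc, with 0.06 ± 0.18 (0.881), showed no detectable difference; with limma-trend on log2(FPKM + 0.5) Megf10 had the opposite sign (0.08).

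The regional calls depended on the libraries and covariates used. On the log2 scale, Thbs4 came to 0.53 ± 0.17 (adjusted p 0.410) and Gpc6 to -0.14 ± 0.06 (0.744) without the 6 libraries of background under 40%, a cut chosen after the data were seen. With the background percentage as a covariate Thbs4 still passed, at 0.66 ± 0.16 (adjusted p 0.0314), Gpc6 did not, at -0.24 ± 0.07 (0.104), and Sparc newly passed, at 0.47 ± 0.10 (0.00661). With the first 2 principal components of the markers of other cell types as covariates neither passed, at 0.32 ± 0.21 (adjusted p 0.761) for Thbs4 and -0.13 ± 0.08 (0.729) for Gpc6, nor with consecutive sample numbers of the regions as a pair block, at 0.66 ± 0.17 (0.167) and -0.32 ± 0.10 (0.290). The pair block joined a PFC library to the NAc library of the next number in the same condition. It was fitted on these 16 pairs only, so it also differs from the main fit in its libraries. Sparcl1 went to 0.02 ± 0.20 with the background covariate and to 0.03 ± 0.32 without the 6 libraries, so its lower fitted level in NAc was not seen under either setting. The scaling itself also differed: TMM factors lowered NAc values relative to PFC values by a mean of 0.15 on the log2 scale compared with library totals. On log2(FPKM + 0.5) Thbs4 stood at 0.48 ± 0.10 and Gpc6 at -0.15 ± 0.04, both passing (limma-trend adjusted p 0.0141 and 0.0239). The added 0.5 is near these genes' own regional medians (0.619 to 0.896 FPKM) and shrinks fold changes. The sizes on that scale therefore do not show the effect of scaling.

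**Figure D2:**
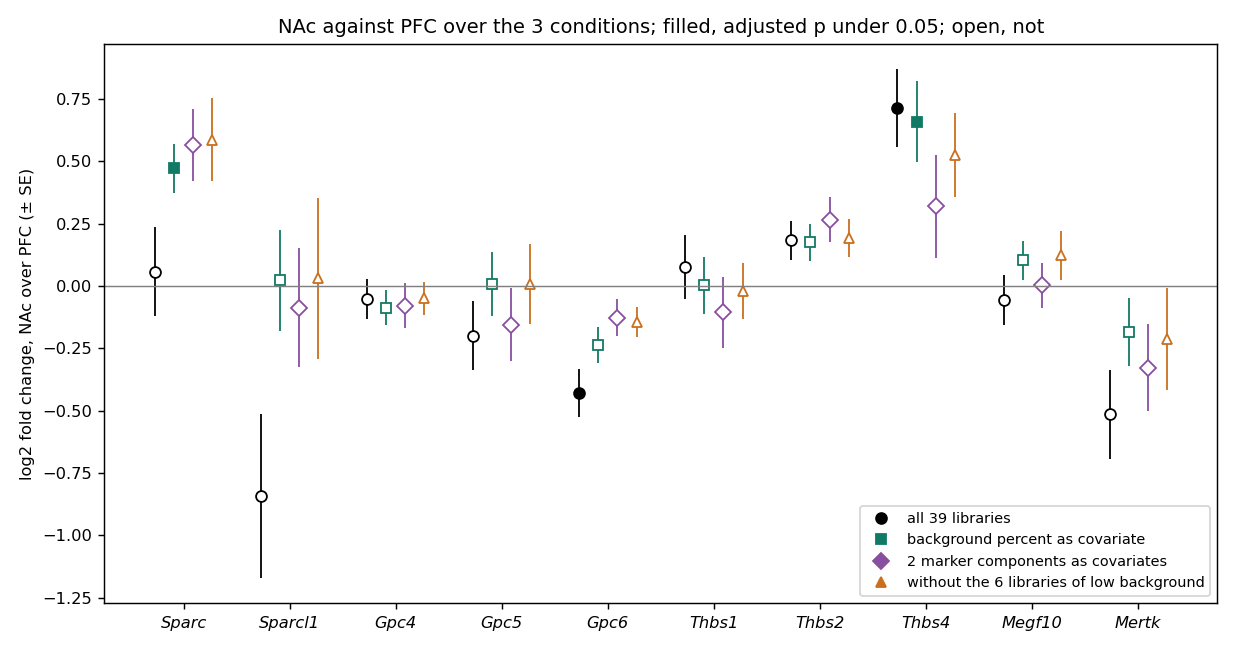
Log2 fold change of NAc over PFC for the 10 genes under 4 settings, with standard errors; filled symbols passed an adjusted p of 0.05 and open symbols did not. Thbs4 stays above 0 in the 4 settings (0.71, 0.66, 0.32 and 0.53) and Gpc6 below it (-0.43, -0.24, -0.13 and -0.14), while Sparcl1 is clearly below 0 only in the fit without covariates on all libraries (-0.84).

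Within each region the level of several genes followed the background of the library. For Gpc6 the correlation had opposite signs in the 2 regions, while Thbs4 followed the background detectably in PFC only. In PFC, the 5 libraries of background under 40%, which are control replicates 1 and 2, susceptible replicate 1 and resilient replicates 1 and 2, had 0.140 to 0.383 FPKM of Thbs4 and the other 12 had 0.369 to 1.01 FPKM. The correlation of log2 FPKM with the background percentage was r = 0.89 there (n = 17, permutation p adjusted over 20 relations 0.0002; Spearman 0.84, 0.000667), and 0.86 without the 2 libraries farthest from the median background. The permutation takes the libraries as exchangeable, while low background in PFC coincides with the replicate numbers 1 and 2. In NAc the same correlation was -0.36 (n = 22, adjusted permutation p 0.117; Spearman -0.32, 0.156). Relative to their own background these 5 PFC libraries were not low, with Thbs4 at 1.36, 1.36, 1.75, 1.81 and 2.40 times background against a PFC median of 1.52. The 1 NAc library under 40%, control replicate 3, had 1.08 FPKM, or 3.96 times background, against an NAc median of 1.89 times.

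For Gpc6 the signs were the reverse of those of Thbs4, and it followed the background detectably in both regions. In PFC its correlation with the background was -0.79 (adjusted permutation p 0.000686; Spearman -0.71, 0.00538), and the 5 libraries of low background had 0.952 to 1.14 FPKM against 0.790 to 1.08 in the other 12. In NAc the correlation was 0.72 (adjusted permutation p 0.000667; Spearman 0.47, 0.0361), and the 1 library of low background, NAc control replicate 3, was the lowest of the 22 at 0.632 FPKM and had the smallest total, 941450 counts. Without the 2 libraries farthest from the median background it was 0.48 in NAc and -0.75 in PFC. The difference between the regions' slopes was not tested. Sparcl1 fell with background in both regions, with r = -0.82 in NAc and -0.83 in PFC (adjusted permutation p 0.0002 each; Spearman -0.81 and -0.88, 0.0003 each), whereas Gpc4 rose with it in both (0.61 and 0.86, adjusted permutation p 0.00637 and 0.0003; Spearman 0.61 and 0.75, 0.00678 and 0.00271). Without the 2 farthest libraries these were -0.78 and -0.74 for Sparcl1 and 0.69 and 0.82 for Gpc4. Sparc fell in both regions too, at -0.67 in NAc and -0.77 in PFC (adjusted permutation p 0.00142 and 0.000925). Thbs1 and Thbs2 also rose in PFC, at 0.73 and 0.74 (adjusted permutation p 0.00215 and 0.00129, Spearman 0.46 and 0.64, 0.0805 and 0.0119). In NAc they had -0.20 and 0.36 (adjusted permutation p 0.389 and 0.117, Spearman 0.16 and 0.54, 0.512 and 0.0170). Background enters the library total that divides each FPKM, so the points share their denominators.

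**Figure D3:**
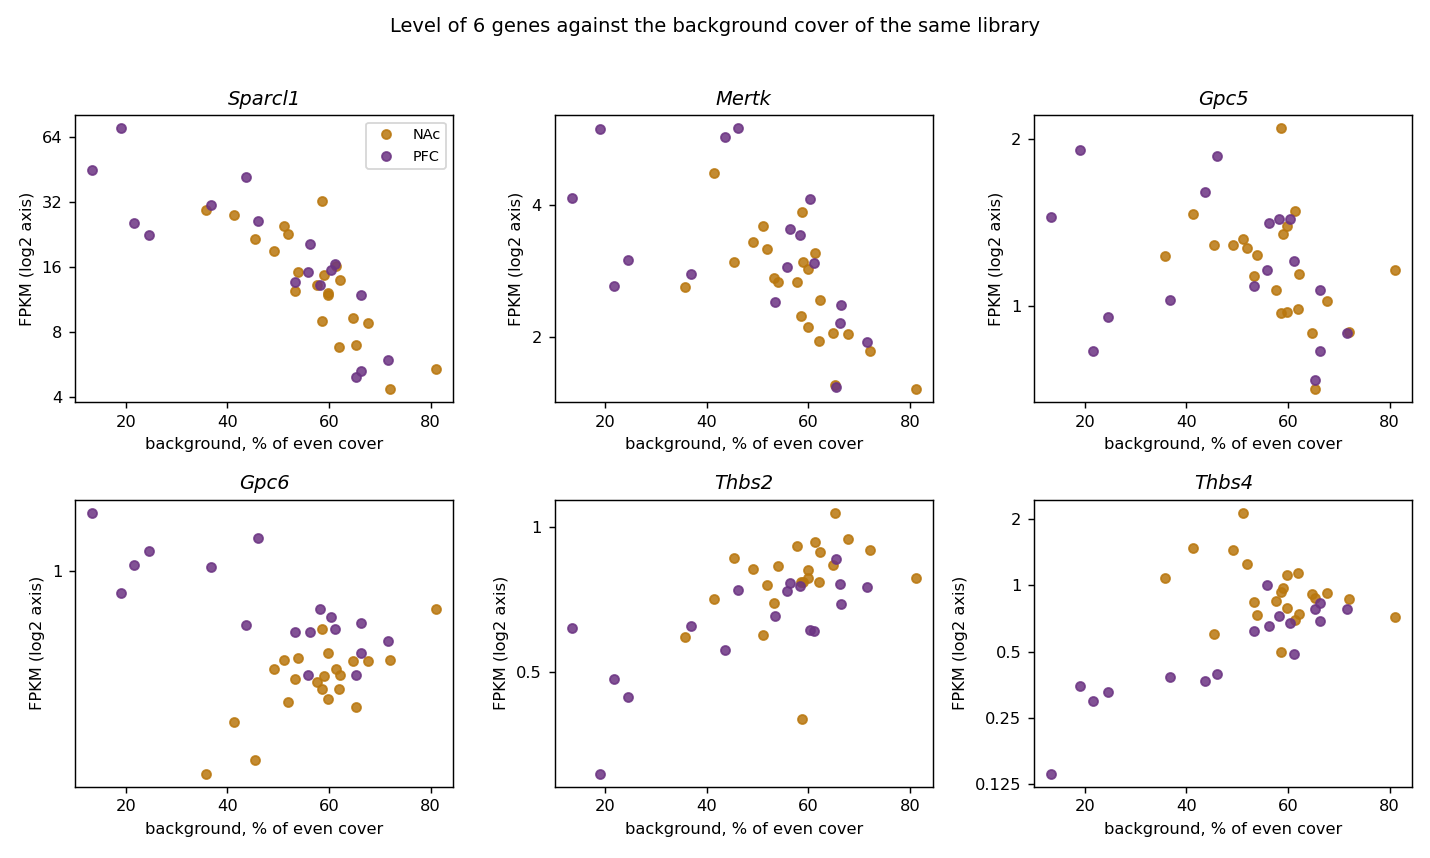
FPKM of 6 of the genes (log2 axis) against the background percentage of the same library; each point is a library, ochre for NAc and purple for PFC. At low background Thbs4 is low in PFC (0.140 to 0.383 FPKM in 5 libraries under 40%) and Gpc6 high (0.952 to 1.14 FPKM), and at higher background the regions lie closer together.

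Stress left no detectable mark on the 10 genes. No gene passed in any of the 6 comparisons within a region (0% of 35943 genes tested in NAc and 0% of 32167 in PFC), so 0 of 10 were called in each. By unadjusted p under 0.05, 1086 genes of NAc passed for susceptible against control, 2206 for resilient against control and 1042 for susceptible against resilient; in PFC these numbers were 155, 192 and 184. These p are from the edgeR quasi-likelihood test. If no gene differed, a threshold of 0.05 would by chance pass more genes than each of these counts except the 2206. In PFC the counts lay far under that number, so the lack of calls there does not exclude a difference. DESeq2, limma-trend and the other alternatives run also called 0 genes. Over the 10 genes the median log2 fold change against control was -0.05 in susceptible and -0.19 in resilient NAc and 0.21 in susceptible and 0.16 in resilient PFC, against medians over all genes between -0.02 and 0.01.

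Hevin had the widest stress estimates of the 10. In NAc, Sparcl1 had 6.80, 14.3 and 28.0 FPKM (lowest, median and highest) in susceptible mice, 4.36, 8.81 and 24.7 in resilient mice and 8.97, 15.2 and 32.4 in controls. In PFC it had 4.98, 23.2 and 45.0 FPKM in susceptible mice, 22.4, 69.9, 16.5, 5.96 and 15.6 in the 5 resilient mice and 5.26, 13.4 and 31.0 in controls. The groups overlapped over most of their ranges. Against control, the log2 fold change was -0.33 ± 0.43 in susceptible and -0.82 ± 0.45 in resilient mice in NAc (adjusted p 1.00 and 0.756), and 0.67 ± 0.64 and 0.79 ± 0.67 in PFC (both 1.00). The PFC value for resilient mice rested on replicate 2 and came to -0.16 without it. Background moved alongside, with a median of 58.3% in NAc susceptible, 65.3% in NAc resilient and 58.5% in NAc control libraries; with it as a covariate the NAc value for resilient mice came to -0.26 ± 0.34, and with the marker components to -0.02 ± 0.32. Sparc had NAc medians of 2.22, 1.65 and 2.12 FPKM in susceptible, resilient and control mice, and its 4 fold changes against control lay between -0.28 and 0.42.

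Because hevin and SPARC oppose each other, their ratio was set apart: the log2 ratio of Sparcl1 to Sparc counts within a library, which needs no scaling. Background was not taken out of it, and Sparc lay nearer to background than Sparcl1 (medians of 4.63 and 33.7 times). The ratio averaged 2.63 ± 0.41 in NAc resilient mice (SD, n = 7) and 3.82 ± 0.98 in PFC resilient mice (n = 5), a difference of -1.19 (exact two-sided permutation p 0.0152, adjusted over the 9 comparisons 0.136). In susceptible mice it was 2.96 ± 0.43 in NAc (n = 8) and 3.64 ± 0.89 in PFC (n = 6), and in controls 3.20 ± 0.70 in NAc (n = 7) and 3.44 ± 0.78 in PFC (n = 6), with adjusted permutation p of 0.313 and 0.719. None of the 9 passed. Leaving out PFC resilient replicate 4 brought the resilient difference to -1.55 (adjusted p of the exact permutation test 0.0273), and leaving out PFC susceptible replicate 3 the susceptible one to -0.99 (0.0490). These 2 libraries had the highest background of their groups, at 71.5% and 65.4%. The relation of the ratio to background was not tested. Against control the ratio differed by -0.24 in susceptible and -0.57 in resilient NAc and by 0.19 in susceptible and 0.37 in resilient PFC, with adjusted permutation p from 0.313 to 0.743.

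No glypican or thrombospondin differed detectably with stress. Gpc5 had -0.24 ± 0.21 in susceptible and -0.35 ± 0.21 in resilient NAc, against 0.47 ± 0.28 and 0.44 ± 0.30 in PFC. Gpc6 stayed between -0.06 and 0.10 in these 4 comparisons, and Gpc4 between -0.03 and 0.14. Thbs4 was the thrombospondin with the largest NAc estimates, 0.40 ± 0.25 in susceptible and 0.28 ± 0.26 in resilient mice (adjusted p 1.00 and 0.808); without NAc resilient replicate 1, at 2.13 FPKM, the resilient value came to -0.08. In PFC it was -0.09 ± 0.28 and -0.08 ± 0.30. Thbs1 lay between -0.24 and 0.04 and Thbs2 between -0.21 and 0.15.

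Neither engulfment receptor differed detectably with stress. Mertk had 1.97, 2.82 and 4.73 FPKM (lowest, median and highest) in NAc susceptible mice, 1.52, 2.03 and 3.58 in NAc resilient mice and 2.11, 2.67 and 3.86 in NAc controls. In PFC it had 1.55, 3.84 and 5.97 FPKM in susceptible mice, 2.99, 5.94, 2.95, 1.95 and 4.12 in the 5 resilient mice and 2.15, 2.51 and 3.42 in controls. The highest stressed PFC libraries exceeded the controls, but the ranges overlapped at their lower ends. The fold changes against control were 0.66 ± 0.36 in susceptible and 0.60 ± 0.37 in resilient PFC (both adjusted p 1.00), and -0.00 ± 0.25 and -0.32 ± 0.26 in NAc. Megf10 came to 0.28 ± 0.22 and 0.28 ± 0.22 in PFC and to -0.05 ± 0.14 and -0.13 ± 0.14 in NAc.

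Whether stress acted differently in the 2 regions was tested directly, and 0% of 38171 genes passed in either test (edgeR, DESeq2 and limma-trend each called 0). By unadjusted p under 0.05 edgeR had 528 for susceptible and 1318 for resilient mice, both fewer than that threshold passes by chance. Of the 10 genes, 9 had a lower susceptible effect in NAc than in PFC and 7 a lower resilient effect; over all genes 16899 and 16786 of 38171 did. Gpc5 had the smallest p in both, with -0.68 ± 0.33 (unadjusted p 0.0467, adjusted 1.00) for susceptible and -0.77 ± 0.35 (0.0322, adjusted 0.849) for resilient mice. Mertk followed with -0.63 ± 0.43 and -0.90 ± 0.44, and Sparcl1 had -0.96 ± 0.79 and -1.59 ± 0.82. These 4 contrasts against control and both differences share the control libraries, and Gpc5, Mertk and Sparcl1 vary together from library to library, so their like signs are not separate observations.

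**Figure D4:**
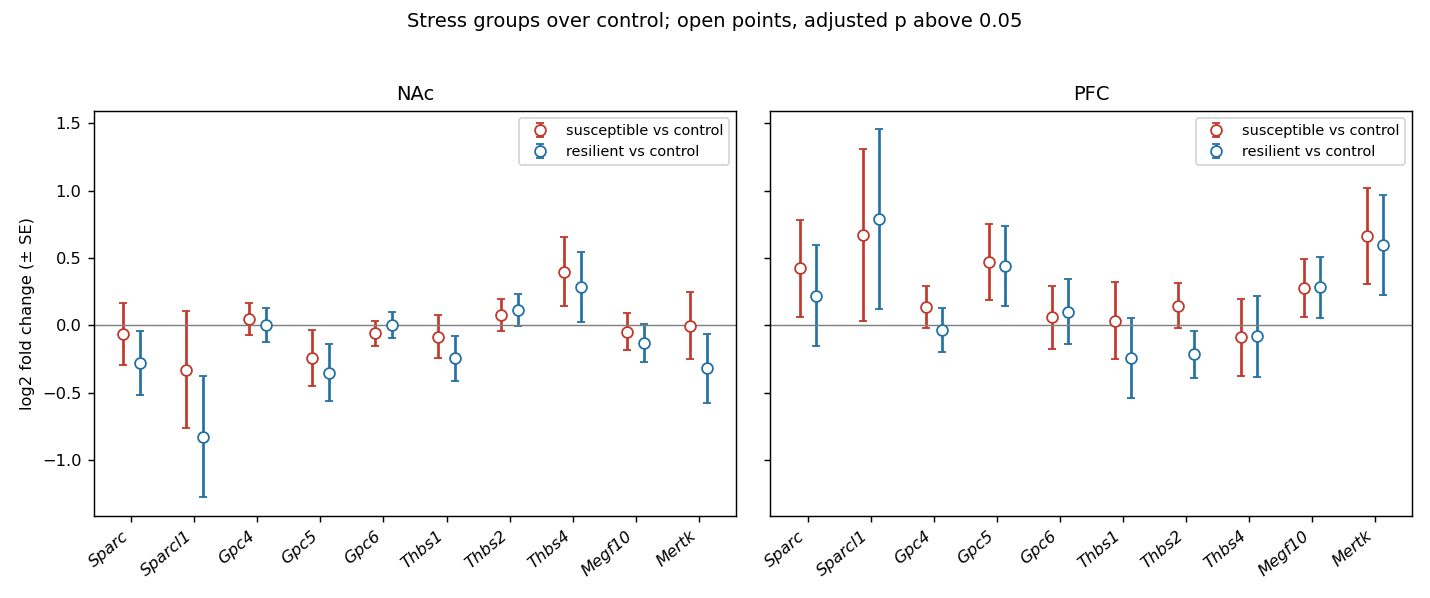
Log2 fold change against control of the 10 genes in susceptible (red) and resilient (blue) mice, with standard errors, for NAc on the left and PFC on the right; all points are open because none passed. Sparcl1 has the longest bars (-0.82 ± 0.45 in NAc resilient and 0.79 ± 0.67 in PFC resilient mice), and Gpc4 and Gpc6 lie near 0.

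From library to library, 6 of the 10 genes varied together. With group means removed, the log2 CPM of Gpc5 and Mertk correlated at r = 0.93 over the 39 libraries, Megf10 and Mertk at 0.92, Sparcl1 and Mertk at 0.91 and Gpc5 and Megf10 at 0.91. Sparc and Gpc6 joined them more loosely, at 0.81 and 0.71 with Sparcl1. Without removal of group means, the 6 followed the summed astrocyte markers, with r from 0.58 for Gpc6 to 0.94 for Mertk and for Sparcl1. Gpc4 and the thrombospondins did not, with r from -0.42 for Thbs2 to -0.17 for Gpc4. With group means removed, Gpc6 ran against Thbs4 (-0.58) and Thbs1 (-0.53). The 39 points share library depth and background, so these values describe the libraries and carry no p.

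**Figure D5:**
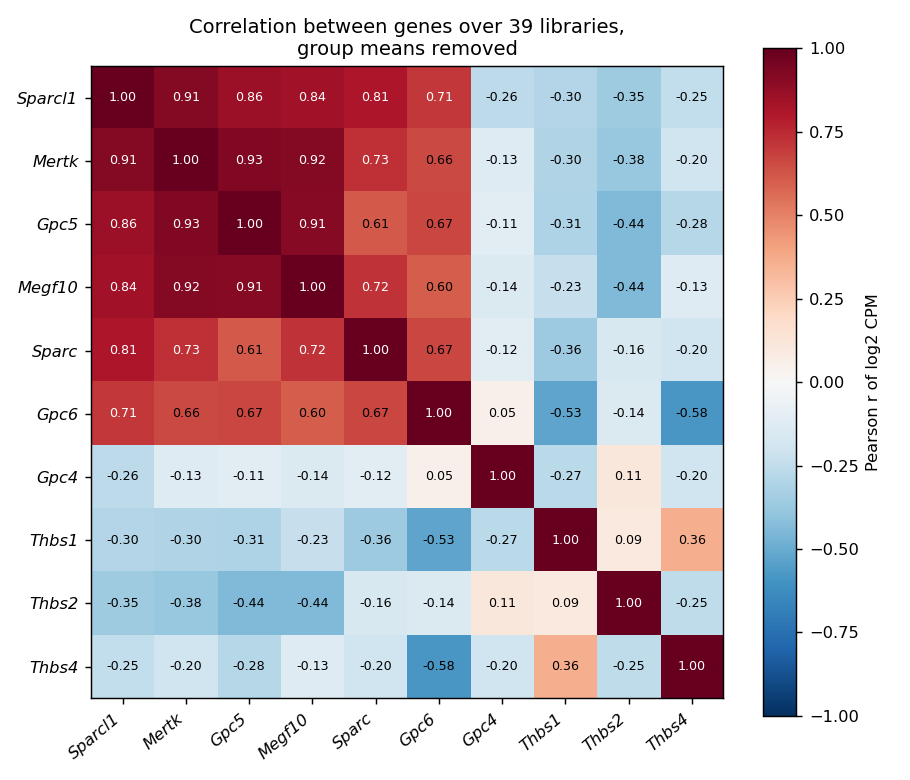
Pearson correlation of log2 CPM between the 10 genes over 39 libraries after removal of group means, from blue (-1) to red (1). Sparcl1, Mertk, Gpc5, Megf10, Sparc and Gpc6 form a red square (0.93 between Gpc5 and Mertk), and the thrombospondins and Gpc4 stand outside it.

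The wider pathway was read from 3 lists, chosen with earlier results of these data known: other synapse factors of astrocytes, neuronal receptors and partners, and the engulfment pathway. In NAc against PFC, 4 of 18 other synapse factors passed, all lower in NAc, where 3.73% of all genes did, with a list median of -0.08. Well-covered genes were called more often: of the 17302 genes of log2 CPM above 3, 1062 were lower. The 3.73% set beside each list is therefore a low mark. The clearest of the 4 was Chrdl1, a secreted factor for the maturation of AMPA receptor synapses, at -1.24 ± 0.15 (adjusted p 4.39e-06). It had 0.236, 0.330 and 0.423 FPKM in NAc (lowest, median and highest of 22) and 0.349, 0.595 and 1.27 FPKM in PFC (17). Its NAc median lay under background, at 0.717 times, against 1.60 times in PFC, so its NAc level cannot be read as astrocyte expression and the size of the fold is uncertain. Chrdl1 passed in each of the 39 fits that left out 1 library, from -1.30 to -1.09, and under each of the 10 other alternatives, from -1.26 to -0.47. The value -0.47 came from limma-trend, where the added 0.5 shrinks fold changes. The others were Spock2 at -1.17 ± 0.28 and Spock1 at -0.44 ± 0.11, proteoglycans of the SPARC family, and the adhesion molecule Nrcam at -0.59 ± 0.16 (adjusted p 0.0121, 0.0143 and 0.0249). Of the 4, Chrdl1 alone still passed with the marker components as covariates, where Spock1 came to 0.05 ± 0.09 (adjusted p 0.948). The part of other cells' RNA in these differences was not tested.

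Of the receptors and partners, most of them made by neurons, 10 of 23 passed as lower in NAc, against 3.73% of all genes, and 0 passed as higher, against 0.27%. The list median was -0.55, with 21 of 23 fold changes below 0. The 4 with the smallest p were the neuronal pentraxin receptor Nptxr at -2.94 ± 0.41 (adjusted p 9.40e-05), the pentraxin Nptx1 at -1.92 ± 0.34 (0.000824), the receptor phosphatase Ptprd at -0.70 ± 0.16 (0.0075) and the hevin partner Nlgn1 at -0.78 ± 0.18 (0.00949). The thrombospondin receptor Cacna2d1 was also among the 10, at -0.49 ± 0.12 (0.0162); it is named for its role, after its value was seen. The summed neuron markers ran from 639 to 1401 CPM in NAc and from 682 to 3136 CPM in PFC. With the marker components as covariates Nptxr came to -0.68 ± 0.23 (adjusted p 0.480). Under that setting 6 of all genes passed, in place of 1527, so its loss is not particular to this list. The part of neuronal RNA in these differences was not tested.

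Of the engulfment pathway, 4 of 22 genes passed, all lower in NAc, against 3.73% of all genes, with a list median of -0.34. They were Gas6, a ligand of Mertk, at -0.51 ± 0.12 (adjusted p 0.00618), the complement genes C1qb at -0.61 ± 0.16 (0.0243) and C1qa at -0.66 ± 0.18 (0.0247), and the lipid transporter Abca7 at -0.41 ± 0.12 (0.0417). C1q is made by microglia in brain; the 8 microglial markers summed to 204 CPM at the NAc median and 224 CPM at the PFC median, each marker lay at a median of 0.851 to 3.36 times background, and their part in the result was not tested. Pros1, the other ligand of Mertk, also named after its value was seen, did not pass, at -0.03 ± 0.07 (adjusted p 0.834). Of the 12 called genes named by smallest p in these 3 lists, which leaves out Cacna2d1, 7 still passed with the replicate block, 4 with the background covariate and 3 with limma-trend. Without the 6 libraries of low background 2 passed, and 1 did with the marker components and 1 with the pair block.

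No gene of the 3 lists passed in a stress comparison. For susceptible against control in NAc the smallest unadjusted p belonged to Spock3 at -0.48 ± 0.17 and Il33 at -0.52 ± 0.20, to Ptprd at -0.32 ± 0.13 and Nrxn3 at -0.27 ± 0.11, and to Elmo1 at -0.16 ± 0.08 and Tyro3 at -0.56 ± 0.32 (adjusted p 1.00 each). For resilient against control in NAc they were Il33, a cytokine that astrocytes use to direct synapse removal, at -0.63 ± 0.21 and Smoc1 at 0.15 ± 0.10, Itgb1 at -0.43 ± 0.16 and Itgav at -0.29 ± 0.16, and Rac1 at -0.54 ± 0.22 and Axl at -0.42 ± 0.20 (adjusted p 0.756 each).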

How the data were processed

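RNA-seq counts and FPKM per gene were used as deposited for 39 libraries. Counts were made with featureCounts on mm10, per the submitters' processing notes; the counting options are not stated there. The deposited FPKM divide the authors' counts by the library total and the whole gene span, as a comparison of both tables showed. Library totals ran from 941450 to 37339379 counts, which limits precision in the shallowest libraries, and no pair of libraries was identical. Where nothing says that libraries are separate litters or batches, p-values measure the spread between these samples.

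Tests used edgeR 4.0.16 (TMM scaling, filterByExpr, robust quasi-likelihood F test, Benjamini-Hochberg adjustment over all genes tested, threshold 0.05) in R 4.3.3. Comparisons within a region were fitted on that region's 3 groups, and those between regions on all 39 libraries; standard errors are the fold change divided by the root of F. Alternatives were DESeq2 1.42.0, scaling by relative log expression, testing without the count filter, limma-trend (limma 3.58.1) on log2(FPKM + 0.5), a replicate block, background and marker covariates, a block of consecutive sample numbers, and libraries left out. The code was tested on simulated data. The Sparcl1 to Sparc ratio used a pseudocount of 0.5 and exact permutation tests, and correlations used 100000 resamples (scipy 1.17.1, Python 3.11.15).

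In PFC, libraries with the same replicate number deviated together in each pair (lowest correlation 0.146, 0.414 and 0.233 in the 3 group pairs). The best match had the same number in only 2 of 6, 3 of 5 and 2 of 5 cases. Low background in PFC also falls on replicates 1 and 2, so whether the numbers pair libraries cannot be told. The main fits and the ratio tests ignore any such pairing, and the replicate block was an alternative only. In NAc, libraries of the same number deviated together in 5, 2 and 4 of 7 pairs. The members and lists were chosen with earlier results of these data known. All 10 members are named, with up to 4 called genes of each list by smallest p, otherwise the 2 of smallest p, and the 3 genes most correlated with each member, of which 2 are not reported here.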

Additional observations from a re-analysis of the deposited data

Results flagged for a closer look

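Of the 60 combinations of a gene and a group, 5 held a library far from the rest of its group, its gap to the nearest library being large against the range of the group. Chance does this in about 1 of 20 groups. Sparcl1 was at 69.9 FPKM in PFC resilient replicate 2, against 5.96 to 22.4 FPKM in the other libraries of that group, and this library's background was 19%. Thbs4 was at 2.13 FPKM in NAc resilient replicate 1, against 0.698 to 0.926 FPKM in the others. Sparc was at 3.58 FPKM in NAc control replicate 4, against 1.78 to 2.29 FPKM, and Gpc5 at 2.09 FPKM in NAc control replicate 6, against 0.970 to 1.39 FPKM. Thbs1 was low in PFC control replicate 2, at 0.288 FPKM against 0.627 to 0.802 FPKM, and that library's background was 21.7%.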

How the results depend on the processing

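The count of genes that differed between NAc and PFC over conditions, 1527, moved with most settings. It was 2313 with DESeq2, 571 with limma-trend, 405 with the background covariate, 6 with the marker components and 55 without the 6 libraries of low background. With consecutive sample numbers as a pair block, fitted on 16 pairs of libraries only, it was 11. Leaving out 1 library gave 596 (without PFC resilient replicate 1) to 3062 (without PFC resilient replicate 4), with 724 without PFC susceptible replicate 1, 797 without PFC control replicate 2, 870 without PFC resilient replicate 2 and 2314 without PFC susceptible replicate 3. Of the 10 genes, 0 passed with the marker components, without the 6 libraries and with the pair block. Thbs4 and Gpc6 passed in each of the 39 fits that left out 1 library, at 0.59 to 0.79 and -0.46 to -0.36. With the replicate block the count was 675 and Thbs4 stood at 0.81 and Gpc6 at -0.41, both passing; replicate numbers do not pair the 2 regions, and within each region the block called 0 genes, so it changed no stress call.

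In controls, the 1 gene called became 81 with DESeq2, 297 with the background covariate, 3 with the pair block, 0 with the marker components and 0 without the 6 libraries, and 1 to 3 with a library left out. In susceptible mice the 1 gene became 5 with DESeq2 and 0 with the marker components or the pair block, and 0 to 2 with a library left out. In resilient mice the 0 became 55 with DESeq2 and 0 to 85 with a library left out. The Sparcl1 to Sparc ratio of NAc against PFC ran from -1.55 to -0.90 in resilient and from -0.99 to -0.55 in susceptible mice with a library left out. With the marker components Spock1 (0.053, adjusted p 0.948) and Abca7 (0.024, adjusted p 0.993) turned their sign. The cause of these shifts was not tested. Depth limits the low genes: Thbs1 had a median of 122 counts and Thbs2 of 269.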

Other observations

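The genes whose levels followed each of the 10 most closely were sought among 13138 genes, as the 3 with the highest Pearson correlation of log2 CPM over the 39 libraries after removal of group means. For hevin (Sparcl1) they included Igsf8 (0.990) and the lipid carrier Apoe (0.980). For Mertk they were Nwd1 (0.983), Appl2 (0.977) and the protease Htra1 (0.974). For Gpc5 they were Trps1 (0.979), the zinc transporter Slc39a12 (0.970) and the hedgehog pathway factor Gli3 (0.967). For Megf10 they were the growth factor receptor Egfr (0.941), Idh1 and the gliogenic factor Nfia (0.939 each). For Gpc6 they were Rgs7 (0.961), Fbxl17 (0.954) and Adcy2 (0.953), and for Sparc they included Cggbp1 (0.922) and Lrpap1 (0.921).

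Gpc4 and the thrombospondins had looser partners. The highest were 0.808 for Gpc4 with Sdr16c6, 0.799 with Abcg2 and 0.791 with the odorant receptor Olfr943, which is among the background genes. Thbs2 reached 0.788 with Cgnl1, 0.733 with Glt8d2 and 0.714 with Cemip. Thbs1 reached 0.755 with Marc1, 0.726 with Pax1 and 0.694 with Dmc1. Thbs4 reached 0.702 with Pipox, 0.687 with Sema5b and 0.675 with the striatal signalling regulator Rgs9. The libraries share depth and background, so these are descriptions with no p.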
